A study of Mus musculus with 8 samples.

Results

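MYC is a transcription factor that binds DNA as a dimer with MAX and is best known for driving the genes that build ribosomes. Ribosomes are made in the nucleolus, where RNA polymerase I transcribes a long ribosomal RNA precursor, small nucleolar ribonucleoproteins (snoRNPs) modify it, and several sets of assembly factors cut it and fold it into the small and the large subunit. The adult heart consists by volume mostly of cardiomyocytes, which no longer divide, and growth of these cells is known to raise ribosome production. The 36 genes described here were taken as a fixed list of symbols, namely *Myc*, *Mycn* and *Max* together with 33 genes of RNA polymerase I, snoRNPs and nucleolar assembly, and all 36 were found once each among the protein-coding entries of the 54508 genes listed. The rule uses gene names only, but the list was chosen with earlier results of these data known.

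RNA sequencing was performed on heart tissue from 24-week-old C57BL/6 mice, 4 of genotype RNase H1+/+ (wild type) and 4 of genotype RNase H1-/- (*Rnaseh1* knockout). In the knockout, exon II of *Rnaseh1* was flanked by loxP sites and removed in heart and skeletal muscle by a Cre recombinase under the muscle creatine kinase promoter (*Ckmm-cre*). The controls are drawn in the study as floxed mice without Cre, so that effects of Cre and of losing RNase H1 cannot be told apart. Hearts still hold fibroblasts, vessel cells and blood cells, in which this promoter is not known to drive Cre. Replicate numbers name separate libraries of a group.

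Counted read pairs amounted to 31810103 to 40715847 in the wild type libraries and 27429878 to 30505752 in those of the knockout. Transcripts of mtDNA took 60.2% to 62.6% of the wild type counts and 9.46% to 12.3% of the knockout counts, which left 11896021 to 16213429 pairs on nuclear genes in wild type and 24835342 to 27146119 in the knockout. Values are counts divided by 1 size factor per library (normalised counts). The knockout libraries differed more among themselves than the wild type libraries did. Knockout replicate 3 lay apart from replicates 1 and 2 on the second principal component (10.02% of the variance, scores of -54.2 against 35.9 and 31.1). Knockout replicate 4 lay between them at -11.5. *Rnaseh1*, of which only exon II is deleted, had 129 to 158 normalised counts in wild type hearts against 145 to 182 in knockout hearts, a log2 difference of 0.23 ± 0.12 (SE, limma adjusted p = 0.114). It was thus not lower in the knockout libraries, and the count includes reads of the exons that are not deleted.

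A feature held by some of these genes is the sequence CACGTG, the E-box that MYC and MAX dimers are known to bind. RefSeq promoter windows on GRCm38.p6, from 250 bases before to 50 bases after the start site, were found for 30 of the 36 genes. *Myc*, *Fbl*, *Npm1*, *Rrp12*, *Bop1* and *Rrs1* had no entry. CACGTG was searched on both strands, on which it reads alike. It was present in 6 of the 30 windows (20%), against 8.09% of 27025 symbols with a window. These symbols include genes not tested for expression here, so the shares are not like for like, and their difference was not tested. The 7 occurrences are printed to show how they sit relative to the start site, with the E-box in capitals and 7 bases on either side, 5′ to 3′ on the strand of the gene.
*Rrn3*, chr16:13780477-13780496, plus strand, E-box from base -215: ccaaggtCACGTGcacacgc
*Rrn3*, chr16:13780644-13780663, plus strand, E-box from base -48: ctctgctCACGTGggccgcg
*Nop2*, chr6:125131816-125131835, plus strand, E-box from base -60: cctggatCACGTGtgttccg
*Max*, chr12:76962239-76962258, minus strand, E-box from base -3: gcccggtCACGTGttagggg
*Pes1*, chr11:3963970-3963989, plus strand, E-box from base 3: ggcagggCACGTGcgggagg
*Wdr43*, chr17:71616225-71616244, plus strand, E-box from base 18: gggcgaaCACGTGgctgccg
*Utp20*, chr10:88826765-88826784, minus strand, E-box from base 38: ctaactaCACGTGaggaaaa
A match is a description of these letters and not a binding site, and of the 6 genes that hold one, 5 were called higher in the knockout and *Max* was not, a share close to the 28 of 36 among all the genes described. *Rrn3* alone held the E-box at more than one place, and the stretch of 200 bases that spans both (chr16:13780469-13780668, plus strand, bases -230 to -31 from the start site, E-boxes in capitals) reads as follows.
*Rrn3*: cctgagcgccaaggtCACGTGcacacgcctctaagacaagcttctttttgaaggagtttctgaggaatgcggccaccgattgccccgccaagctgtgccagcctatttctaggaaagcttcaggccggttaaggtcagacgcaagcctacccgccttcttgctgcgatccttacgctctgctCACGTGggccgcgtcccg

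Of the 36 genes 28 were higher in knockout hearts and none was lower. The rises went from 10.1-fold for *Myc* to 1.21-fold for *Nop10*, with 14 genes at a log2 change of at least 1. The test was limma-trend on log2(normalised count + 1) with Benjamini-Hochberg adjustment over the 17046 genes whose mean normalised count was at least 10, among which all 36 passed this filter. In the same comparison 30.7% of all genes tested were higher and 28.4% were lower, while 11.5% were higher and 10.8% lower by a log2 change of at least 1 in size. The median log2 change was 0.81 for the 36 genes and 0.02 for all genes tested. The 28 and 0 genes were also the counts given by edgeR and by DESeq2, and at an unadjusted p under 0.05 limma gave 29 higher and 0 lower. All 4 knockout libraries lay above all 4 wild type libraries for 28 genes, against 28.2% of all genes tested, and below them for 0 genes, against 26.5%. These were the 28 called genes with *Ubtf* in place of *Nop10*. Without knockout replicate 3, which stood apart, 30 of the 36 genes were higher, as were 5474 of all genes tested. With any other single library left out the count was 28 or 29. With libraries scaled to equal totals of nuclear genes, which moved the median of all genes tested to 0.24, 34 of the 36 were higher and 0 lower, and over all genes 7355 were higher and 3268 lower, against 5241 and 4839 as scaled by the authors.

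**Figure D1:**
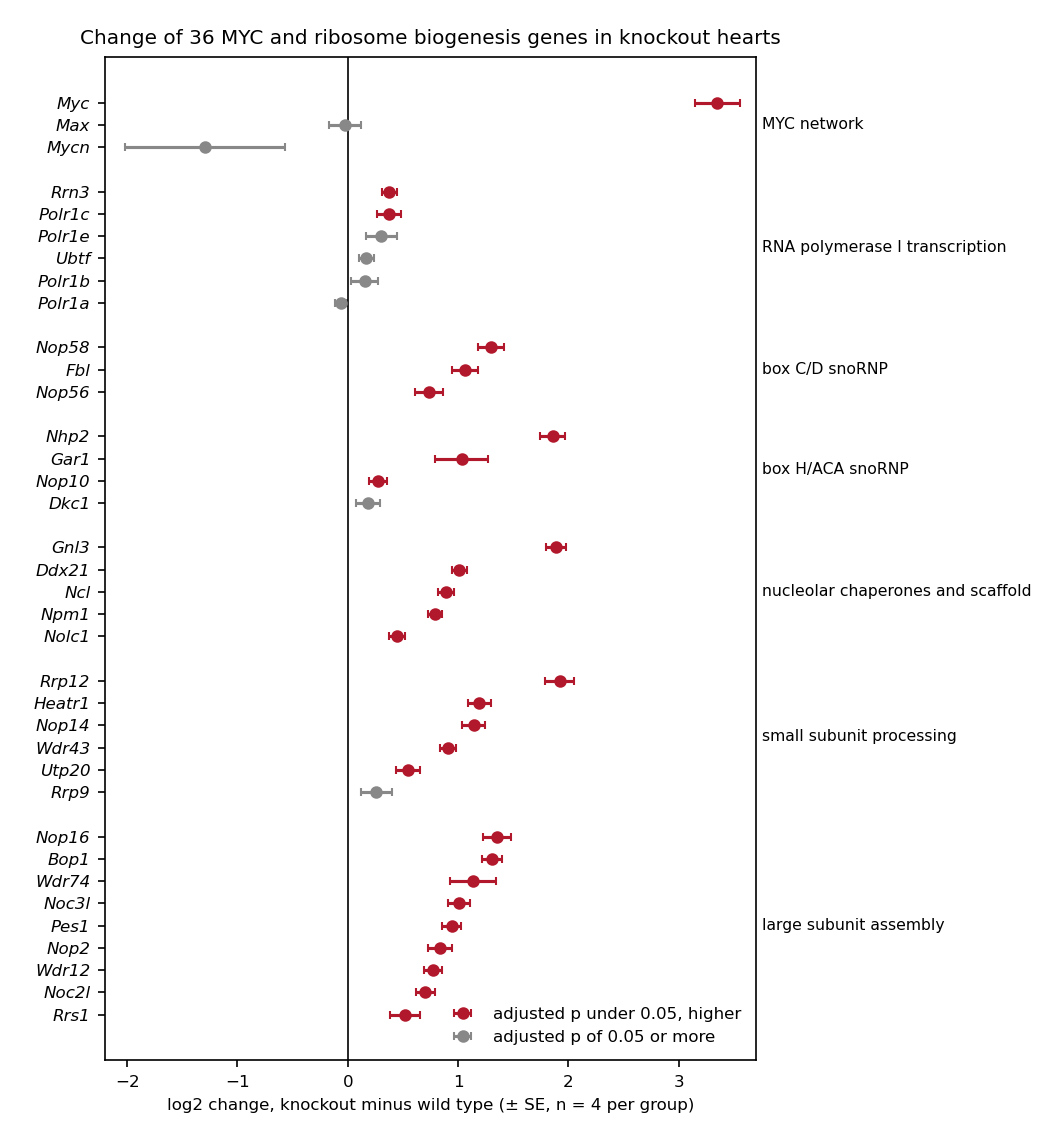
Log2 change (knockout minus wild type, x axis) of each of the 36 genes with its standard error (n = 4 per group), grouped by role, with called genes in red and the others in grey. *Myc* lies farthest to the right at 3.35, the polymerase I genes lie between -0.06 and 0.38, and all 9 genes of large subunit assembly lie between 0.52 and 1.35.

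Markers of several cell types differed between genotypes too. All 10 cardiomyocyte markers were lower (median log2 change -1.82), with a summed level of 3837000 to 3996000 normalised counts in wild type and 1523000 to 1842000 in the knockout. No marker of any list was at 0 in all 8 libraries. All 9 macrophage markers were higher, with sums of 5372 to 6015 in wild type and 14460.0 to 18040.0 in the knockout. Of 6 markers of activated fibroblasts 5 were higher (3046 to 5401 against 17700.0 to 26070.0), and all 10 markers of dividing cells were higher (391 to 586 against 819 to 3249). Of 8 fibroblast markers 4 were higher and 1 lower, of 7 endothelial markers 1 and 3, and of 6 mural markers 1 and 4. All 5 granulocyte markers were higher, and 0 of 5 erythroid markers were called. Of 7 T and NK cell markers 1 was tested and was higher, and 0 of 3 B cell markers tested were called. Over all genes tested 30.7% were higher and 28.4% lower. Fewer cells of a type and less RNA per cell cannot be told apart in whole tissue, and the part of these cell types in the changes of the 36 genes was not tested.

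*Myc* had the largest change of the 36. The wild type libraries held 25.6, 37.0, 54.1 and 32.8 normalised counts, and the knockout libraries held 416, 374, 339.5 and 380.2. The groups were far apart, since the lowest knockout library had over 6 times the counts of the highest wild type library, and the knockout libraries were close to each other. The mean rose from 37.4 ± 12.1 to 377 ± 31.1 (SD, n = 4), a log2 change of 3.35 ± 0.20 (SE, limma adjusted p = 2.36e-07), which was above that of 99.0% of all genes tested. *Myc* (ENSMUSG00000022346) is located at chr15:61985391-61990374 (GRCm38, plus strand).

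*Mycn*, which encodes N-MYC, a paralogue known above all from the embryonic heart and from neural tissue, split the knockout libraries. Wild type libraries held 87.2, 72.7, 88.1 and 81.1 normalised counts and knockout libraries 127, 78.1, 7.82 and 13.9. Knockout replicate 1 lay above the wild type range and replicate 2 within it, while replicates 3 and 4 lay far below it. The log2 change of -1.29 ± 0.72 did not pass (limma adjusted p = 0.148). It was smaller with edgeR (-0.54, adjusted p = 0.513) and with DESeq2 (-0.55, adjusted p = 0.588). By limma it was -1.93 without knockout replicate 1 (adjusted p = 0.0193) and -0.64 without knockout replicate 3 (adjusted p = 0.333). Markers of dividing cells divided the knockout libraries in the same way, with sums of 2525, 3249, 819 and 1104 in replicates 1 to 4, as did granulocyte markers in the opposite direction, with 296, 334.5, 1261 and 1561, and erythroid markers, with 6318, 6777, 21960.0 and 19450.0. The part of these in the *Mycn* values was not tested.

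*Max*, the obligate partner of MYC in DNA binding, had nearly the same mean in both groups. Its wild type libraries held 571, 653, 677 and 642 normalised counts and its knockout libraries 555, 511, 861 and 620.4, so that knockout replicate 3 lay above and the others within or below the wild type range. The log2 change was -0.02 ± 0.14 (limma adjusted p = 0.899), and its sign turned when a single library was left out. Within single libraries the log2 level of *Myc* minus that of *Max* averaged -4.10 ± 0.35 over wild type and -0.73 ± 0.43 over knockout libraries (SD, n = 4 each), a change of 3.37 in which the scaling of libraries enters only through the pseudocount (3.39 with a pseudocount of 0.5 and 3.24 with 5). An exact two-sided permutation test gave p = 0.0286, the smallest that 4 against 4 libraries allow, and an adjusted p of 0.0619 over the 13 such differences computed.

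**Figure D2:**
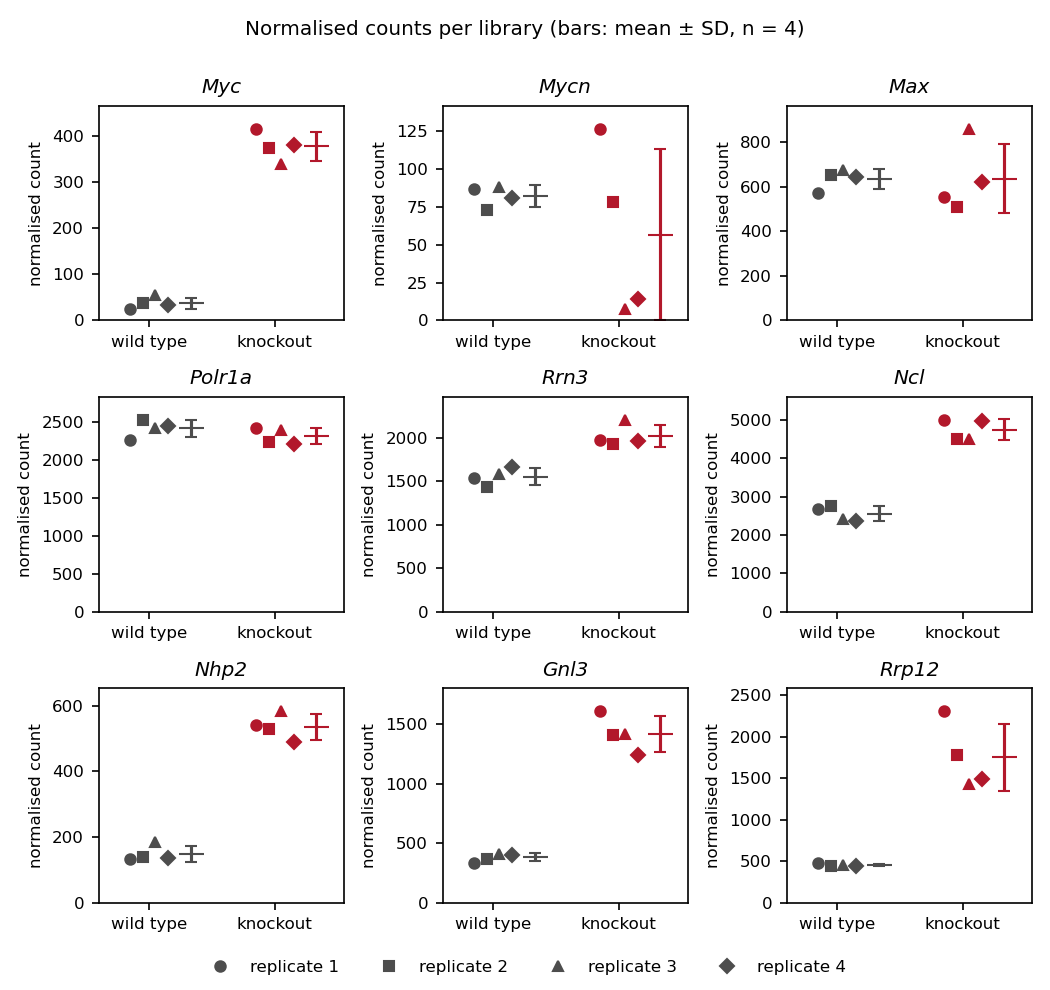
Normalised counts (y axis, starting at 0) of 9 genes in each of the 4 wild type (grey) and 4 knockout (red) libraries, with the replicate shown by the symbol and the mean ± SD (n = 4) at the right of each group. The groups are separate for *Myc*, *Rrn3*, *Ncl*, *Nhp2*, *Gnl3* and *Rrp12*, they overlap for *Max* and *Polr1a*, and *Mycn* spans 7.82 to 127 within the knockout.

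Of 6 genes of RNA polymerase I transcription 2 were higher, *Rrn3* and *Polr1c*, a share near the 30.7% of all genes tested, and the median log2 change was 0.24. *Polr1a*, the largest subunit, held 2265, 2525, 2421 and 2443 normalised counts in wild type and 2414, 2239, 2396 and 2208 in the knockout. The groups overlapped, and the log2 change was -0.06 ± 0.06 (limma adjusted p = 0.388). *Rrn3* encodes the factor TIF-IA, which recruits the polymerase to the ribosomal RNA promoter in response to growth signals. It held 1539, 1434, 1577 and 1659 normalised counts in wild type and 1969, 1933, 2203 and 1958 in the knockout, without overlap, and rose by 0.38 ± 0.07 on the log2 scale (adjusted p = 0.000651). *Polr1c*, a subunit shared with RNA polymerase III, rose from 235 ± 30.8 to 303 ± 17.7 (SD, n = 4, log2 change 0.37 ± 0.11, adjusted p = 0.0123).

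The remaining genes of this step did not pass. *Polr1b*, the second largest subunit, had a log2 change of 0.15 ± 0.12 (limma adjusted p = 0.297). *Polr1e*, which encodes the subunit PAF53, held 497, 470.4, 308 and 429 normalised counts in the knockout against 319 to 362 in wild type, so that only replicate 3 lay below the wild type range. Its log2 change was 0.30 ± 0.14 (adjusted p = 0.0838), and without knockout replicate 3 it was 0.45 with an adjusted p of 0.000818. *Ubtf*, the factor that holds ribosomal DNA in an open state, was above the wild type range of 1304 to 1333 in all knockout libraries (1383 to 1683). Its log2 change of 0.17 ± 0.07 fell short of the threshold (adjusted p = 0.056) but passed without knockout replicate 4 (0.20, adjusted p = 0.042), while without knockout replicate 3 it was 0.11 (adjusted p = 0.102). Calls of this group depended on the scaling of libraries. With equal totals of nuclear genes, *Polr1a* turned to 0.17 (adjusted p = 0.0231), *Polr1b* was at 0.38, *Polr1e* at 0.53 and *Ubtf* at 0.40 (adjusted p = 0.0164, 0.0066 and 0.000435). The median of all genes tested was then 0.24, above *Polr1a*.

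The box C/D snoRNP, which places methyl groups on ribosomal RNA, was represented by 3 genes. All of them were higher, against 30.7% of all genes tested. *Fbl* encodes fibrillarin, the methyltransferase itself, and held 122, 149, 136 and 116 normalised counts in wild type and 298, 285, 245 and 265 in the knockout. It rose by 1.06 ± 0.11 on the log2 scale (limma adjusted p = 1.88e-05). *Nop58*, one of the paired scaffold proteins, rose from 436 ± 53.8 to 1073 ± 156 (SD, n = 4, log2 change 1.29 ± 0.12, adjusted p = 5.33e-06). *Nop56*, its counterpart, held 483, 471, 599 and 504 in wild type and 1092, 885, 723 and 759 in the knockout, a log2 change of 0.74 ± 0.13 (adjusted p = 0.000686). All 3 genes were highest in knockout replicate 1 and lowest in knockout replicate 3. Within single libraries the log2 level of *Nop58* minus that of *Fbl* differed by 0.23 between the groups (exact permutation p = 0.0286, adjusted p = 0.0619) and that of *Nop56* minus *Fbl* by -0.33 (exact permutation p = 0.0571, adjusted p = 0.0825).

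The box H/ACA snoRNP, which converts uridine to pseudouridine, was uneven. *Nhp2*, a core protein of the complex, held 134, 139, 184 and 136 normalised counts in wild type and 542, 530.3, 583 and 488 in the knockout, and rose by 1.86 ± 0.12 on the log2 scale (limma adjusted p = 3.43e-07). *Gar1* rose by 1.03 ± 0.24 (adjusted p = 0.00358) at a low level, with 20.1 to 43.2 normalised counts in wild type and 53.4 to 74.0 in the knockout. *Nop10* rose by 0.28 ± 0.08 (adjusted p = 0.0152), and its groups touched, since wild type replicate 4 (609) lay above knockout replicate 2 (606). *Dkc1* encodes dyskerin, the pseudouridine synthase, and held 292, 287, 334 and 299 in wild type and 391, 376, 316 and 298 in the knockout, so that knockout replicates 3 and 4 lay within the wild type range. Its log2 change was 0.18 ± 0.11 (adjusted p = 0.169). Relative to *Dkc1* in the same library, the log2 level of *Nhp2* differed by 1.67 and that of *Gar1* by 0.85 (knockout minus wild type), without overlap between the groups (exact permutation p = 0.0286 for each, adjusted p = 0.0619). For *Nop10* relative to *Dkc1* the difference was 0.09 (exact permutation p = 0.571), and from 0.0098 to 0.18 when single libraries were left out. With equal totals of nuclear genes *Dkc1* was at 0.41 (adjusted p = 0.00636).

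Transcripts of abundant nucleolar proteins that chaperone RNA and ribosomal proteins were higher without exception, against 30.7% of all genes tested. *Ncl*, nucleolin, held 2686, 2766, 2423 and 2349.8 normalised counts in wild type and 4995, 4492, 4509 and 4965 in the knockout, a rise of 0.89 ± 0.07 on the log2 scale (limma adjusted p = 1.67e-06). *Npm1*, nucleophosmin, rose by 0.79 ± 0.06, from 2059.5 ± 40.2 to 3568 ± 238 (SD, n = 4, adjusted p = 1.26e-06). *Gnl3* encodes nucleostemin, a GTPase of the nucleolus, and rose most in this group, from 338, 372, 414 and 406 to 1609, 1407, 1415 and 1245 normalised counts (log2 change 1.89 ± 0.09, adjusted p = 6.9e-08). *Ddx21*, an RNA helicase, rose by 1.01 ± 0.07 (adjusted p = 4.24e-07). *Nolc1*, a phosphoprotein that binds snoRNPs, had the smallest rise of the 5, with 0.45 ± 0.07 (adjusted p = 0.000433). The groups did not overlap for any of these 5 genes, whereas 28.2% of all genes tested lay higher without overlap.

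Transcripts of small subunit factors, proteins that cleave and fold the 18S part of the precursor, were higher in 5 of 6 cases. Over all genes tested 30.7% were higher. *Rrp12*, a factor of late maturation and export, held 474, 447, 456 and 439 normalised counts in wild type and 2305, 1779, 1427 and 1490.4 in the knockout. It had the largest log2 change after *Myc*, 1.92 ± 0.13 (limma adjusted p = 6.6e-07), and the knockout libraries were far apart from each other. *Heatr1*, which links transcription to early cleavage, rose by 1.19 ± 0.10 (adjusted p = 3.19e-06) and *Wdr43*, which binds the early precursor, by 0.91 ± 0.07 (adjusted p = 1.98e-06). *Nop14* rose by 1.14 ± 0.10 (adjusted p = 4.55e-06), and *Utp20*, a large scaffold protein, by 0.55 ± 0.11 (adjusted p = 0.00162). *Nop14* was highest in knockout replicate 3 (807) and lowest in replicate 2 (600.3), unlike *Heatr1* and *Rrp12*, which were lowest in replicate 3. *Rrp9*, a protein of the U3 snoRNP, held 460.1, 372, 294 and 377 in the knockout against 265 to 354 in wild type and did not pass (0.26 ± 0.14, adjusted p = 0.137). It passed without knockout replicate 3 (0.37, adjusted p = 0.0175) and was at 0.16 without knockout replicate 1 (adjusted p = 0.339).

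All 9 genes of large subunit assembly were higher, without overlap between the groups. Over all genes tested 30.7% were higher, and 28.2% lay higher without overlap. *Pes1*, *Bop1* and *Wdr12* form the PeBoW complex, which acts on the precursor of the large subunit. *Bop1* held 490.1, 412, 511 and 497 normalised counts in wild type and 1258, 1100.4, 1088 and 1284 in the knockout (log2 change 1.31 ± 0.09, limma adjusted p = 6.95e-07). *Pes1* rose by 0.94 ± 0.09 and *Wdr12* by 0.77 ± 0.08 (adjusted p = 6.61e-06 and 1.87e-05). Relative to *Pes1* in the same library, *Bop1* differed by 0.37 (exact permutation p = 0.0286, adjusted p = 0.0619) and *Wdr12* by -0.17 (exact permutation p = 0.0571, adjusted p = 0.0825). *Nop16* rose by 1.35 ± 0.13, from 144, 212, 188 and 178 to 532, 459, 433 and 416 normalised counts (adjusted p = 7.27e-06). *Nop2*, an RNA methyltransferase, rose by 0.83 ± 0.11 and the partners *Noc2l* and *Noc3l* by 0.70 ± 0.08 and 1.01 ± 0.10. *Wdr74* rose by 1.13 ± 0.21 at a low level, from 32.0 ± 7.25 to 70.9 ± 11.6 (SD, n = 4). *Rrs1*, which helps to bring the 5S particle into the subunit, rose least, by 0.52 ± 0.14 (adjusted p = 0.0074).

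Of the 13 differences between partners within single libraries, 0 passed at an adjusted p of 0.05 by the exact permutation test. At the unadjusted p there were 6 under 0.05, each of them without overlap between the groups. With 4 libraries a side the smallest p is 0.0286, so the adjusted value could pass only if more of the 13 had reached it.

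Per kilobase of annotated exon the genes kept very different levels. In wild type hearts *Npm1* was highest at 773 normalised counts per kilobase, followed by *Nop10* at 495 and *Rrn3* at 359.6, whereas *Myc* was lowest at 13.8. In the knockout *Npm1* stood at 1339 and *Myc* at 139 normalised counts per kilobase. At that level *Myc* was near *Max* (177) and *Noc3l* (131), and far above *Mycn* (17.2), whereas in wild type hearts *Mycn* at 25.0 had been above *Myc*. The length is that of all annotated exons of a gene, whether or not these hearts use them.

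The relation of *Myc* to the other genes was followed library by library. Relative to the wild type mean, *Myc* stood at a log2 level of 3.49, 3.34, 3.20 and 3.36 in knockout replicates 1 to 4. The median of the 33 genes other than *Myc*, *Mycn* and *Max* stood at 0.97, 0.85, 0.76 and 0.84. Both were highest in replicate 1 and lowest in replicate 3, while replicates 2 and 4 stood in opposite order. In wild type, *Myc* stood at -0.48, 0.04, 0.57 and -0.13. The median of the 33 genes stood at -0.01, -0.02, 0.04 and 0.00, a narrow range. Replicate 3 was highest in both, but *Myc* was lowest in replicate 1 and the median in replicate 2. No correlation was computed, because the 8 libraries fall into separate groups and 4 libraries within a group are too few.

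**Figure D3:**
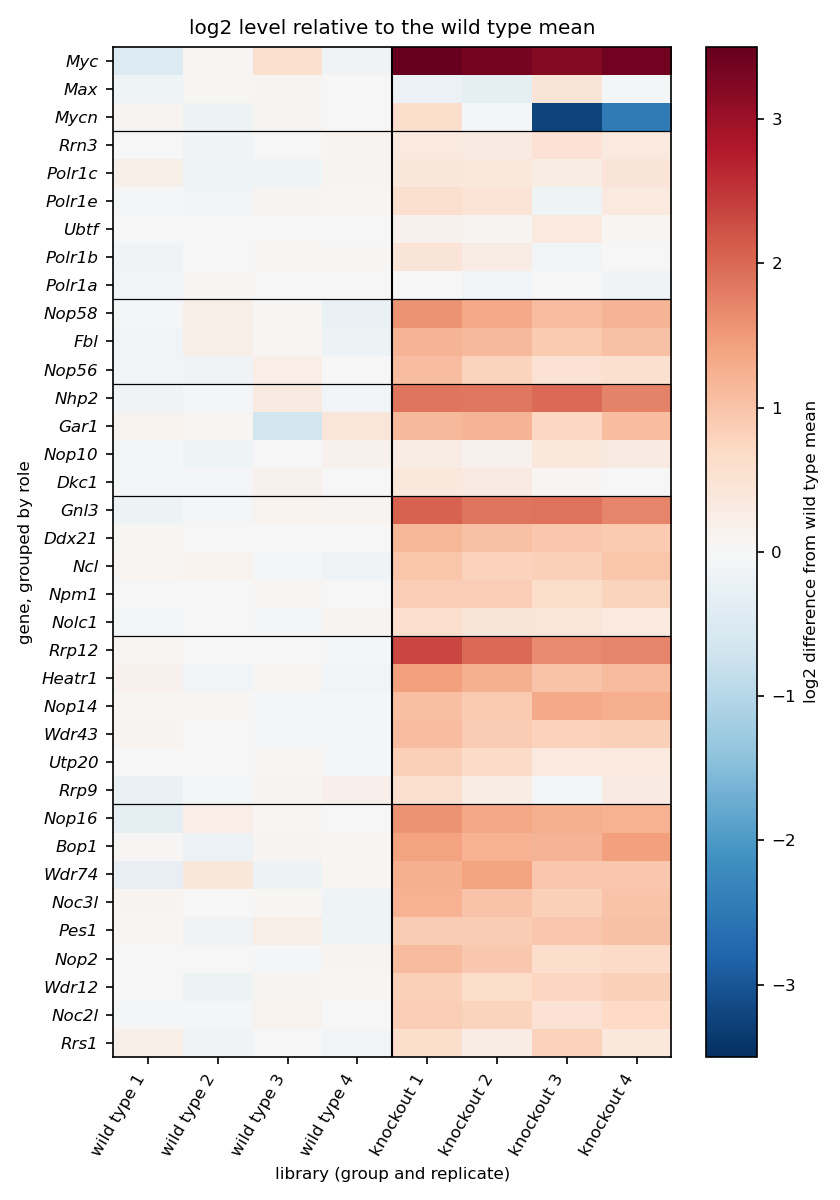
Log2 level of each of the 36 genes (rows, grouped by role) in each of the 8 libraries (columns) relative to the wild type mean of that gene, from blue (lower) over white to red (higher). Knockout columns are red for most rows, with *Myc* darkest, and *Mycn* is dark blue in knockout replicates 3 and 4.

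The pattern among knockout libraries was shared by many of the genes. Of the 36 genes 23 were highest in knockout replicate 1, against 25.6% of all genes tested, and 19 were lowest in knockout replicate 3, against 36%. For 24 of the 36 the SD of the log2 level was larger in the knockout than in wild type, against 61.7% of all genes tested, so that this larger spread was not particular to them. The spread was widest for *Mycn*, *Max*, *Rrp12* and *Polr1e*. Cardiomyocyte markers summed to 1841000, 1842000, 1523000 and 1578000 normalised counts in knockout replicates 1 to 4, and the share of mtDNA counts was 9.46%, 11.3%, 12.3% and 11%. The part of these differences in the order of the libraries was not tested.

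Position on the chromosomes added a feature that the list did not use. The 36 genes lie on 18 chromosomes, and 6 of them carry snoRNA genes within their span on the same strand, namely *Nop56* (5), *Nop58* (4), *Ncl* (3), *Gnl3* (3), *Wdr43* (3) and *Dkc1* (1). Among 13584 protein-coding genes tested that have a position in the annotation, 1.66% carried one. Of these 6 genes 5 were higher and *Dkc1* did not pass, again close to the 28 of 36 among all the genes described. Pseudogene transcripts with at least 200 aligned bases of at least 95% identity exist for *Nop56* (2) and *Npm1* (1), so their counts could be affected by reads that match a copy as well.

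Other genes of the same steps are given by list, and differences between lists were not tested. Of 43 further genes of small subunit processing 37 were higher and 0 lower (median log2 change 0.59), counts that edgeR gave as well. *Dhx37*, a helicase of the small subunit processome, rose by 1.6 ± 0.14, from 373, 414, 363 and 456 to 1665, 1154, 1029 and 1087 normalised counts (limma adjusted p = 4.85e-06), and *Wdr46* rose by 1.37 ± 0.10 (adjusted p = 9.53e-07). Of 45 further genes of large subunit assembly 35 were higher and 1 lower (median 0.57). *Eif6*, which keeps the new large subunit from joining too early, rose by 1.57 ± 0.08, from 429 ± 9.89 to 1280.0 ± 141 (SD, n = 4, adjusted p = 9.28e-08), *Ddx27* rose by 1.25 ± 0.09, and *Nop53* fell by 0.29 ± 0.08 (adjusted p = 0.00936). For all genes tested the shares were 30.7% higher and 28.4% lower. With equal totals of nuclear genes 41 of the 43 genes were higher and 0 lower. Of the 45 genes 40 were then higher and 0 lower, so the fall of *Nop53* was not called under that scaling.

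Subunits and factors of the polymerases were measured as mRNA, and not their activity. Of 14 further subunits and factors of RNA polymerase I, some of them shared with other polymerases, 6 were higher and 1 lower (median log2 change 0.14). *Taf1d* of the promoter selectivity factor rose by 0.70 ± 0.07 (limma adjusted p = 7.68e-06), *Cd3eap* by 0.58 ± 0.14, and the small shared subunit *Polr2k* fell by 0.38 ± 0.12. Scaled to equal totals of nuclear genes, 8 of these 14 genes were higher and 0 lower, so the fall of *Polr2k* was not called there. RNA polymerase III, which makes 5S ribosomal RNA and tRNA, had 6 of 21 genes higher and 6 lower (median 0.00), shares near the 30.7% and 28.4% of all genes tested. *Polr3g* held 105, 121, 116 and 136 normalised counts in wild type and 566, 474, 444 and 559 in the knockout, a rise of 2.08 ± 0.12 (adjusted p = 1.48e-07). Its paralogue *Polr3gl*, which takes the same place in the polymerase and was picked out after its values were seen, fell by 0.40 ± 0.09 (adjusted p = 0.00306). *Maf1*, the repressor of this polymerase, fell by 0.51 ± 0.09 (adjusted p = 0.000421) and *Gtf3c1* by 0.56 ± 0.07. *Polr3e* rose by 0.72 ± 0.09. With equal totals of nuclear genes 9 of the 21 genes were higher and 2 lower, against 7355 and 3268 of all 17046.

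A further list held relatives of MYC, proteins that pair with MAX or with its relative MLX, and cofactors that bind MYC without pairing with MAX (*Ruvbl1*, *Ruvbl2*, *Trrap* and *Zbtb17*). Of its 14 genes 2 were higher and 4 lower, against 30.7% and 28.4% of all genes tested, or 2 and 1 with edgeR, or 7 and 1 with equal totals of nuclear genes. *Mycl*, which encodes L-MYC, rose by 1.6 ± 0.50 (limma adjusted p = 0.0181) from 3.01 to 10.4 normalised counts in wild type to 9.12 to 29.9 in the knockout, where replicates 1 and 2 were high and replicates 3 and 4 low, as for *Mycn*. Its mean of 5.42 in wild type lies under the filter of 10, which it passed only through the knockout mean of 19.4, so its call carries little weight. *Ruvbl1*, an ATPase of chromatin and snoRNP assembly, rose by 0.58 ± 0.10 (adjusted p = 0.00043). *Mlxipl*, which encodes the glucose-responsive factor ChREBP, fell by 2.60 ± 0.16, from 388, 462, 409 and 487 to 89.1, 75.4, 69.1 and 53.6 normalised counts (adjusted p = 2.26e-07), and *Mlxip* fell by 0.47 ± 0.17 (adjusted p = 0.0331). Since only 1 gene of this list was lower with edgeR or with equal totals of nuclear genes, the falls of *Mlxipl* and *Mlxip* were not both called there. Knockout replicate 3 stood apart for *Mlxip*, with 1742 normalised counts against 967 to 1140.0 in the other knockout libraries.

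Known targets of MYC outside the nucleolus were higher in 15 of 23 cases and lower in 4 (median log2 change 0.33), against 30.7% and 28.4% of all genes tested, shares that apply to the lists that follow too. *Nme1*, a nucleoside diphosphate kinase, rose by 1.89 ± 0.10, from 183, 189.8, 151 and 162 to 653, 580.1, 655 and 664 normalised counts (limma adjusted p = 7.63e-08). *Srm*, spermidine synthase, rose by 1.69 ± 0.14 (adjusted p = 2.54e-06). Against this, *Eif4e*, the cap-binding protein, fell by 1.04 ± 0.08 (adjusted p = 1.54e-06) and *Tfrc*, the transferrin receptor, by 0.84 ± 0.14 (adjusted p = 0.000367). Of 10 noncoding host genes of snoRNAs 9 were higher and 0 lower (median 0.88), led by *Snhg15* at 1.42 ± 0.19 and *Snhg3* at 1.19 ± 0.24 (adjusted p = 0.000106 and 0.00144). Of 13 genes tested around the RNA exosome, which trims ribosomal RNA ends, 7 were higher and 1 lower (median 0.24), with *Exosc2* at 0.93 ± 0.09, *Exosc1* at 0.85 ± 0.14 and *C1d* at -0.18 ± 0.07. Scaled to equal totals of nuclear genes, 8 of these 13 genes were higher and 0 lower, so the fall of *C1d* was not called there.

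**Figure D4:**
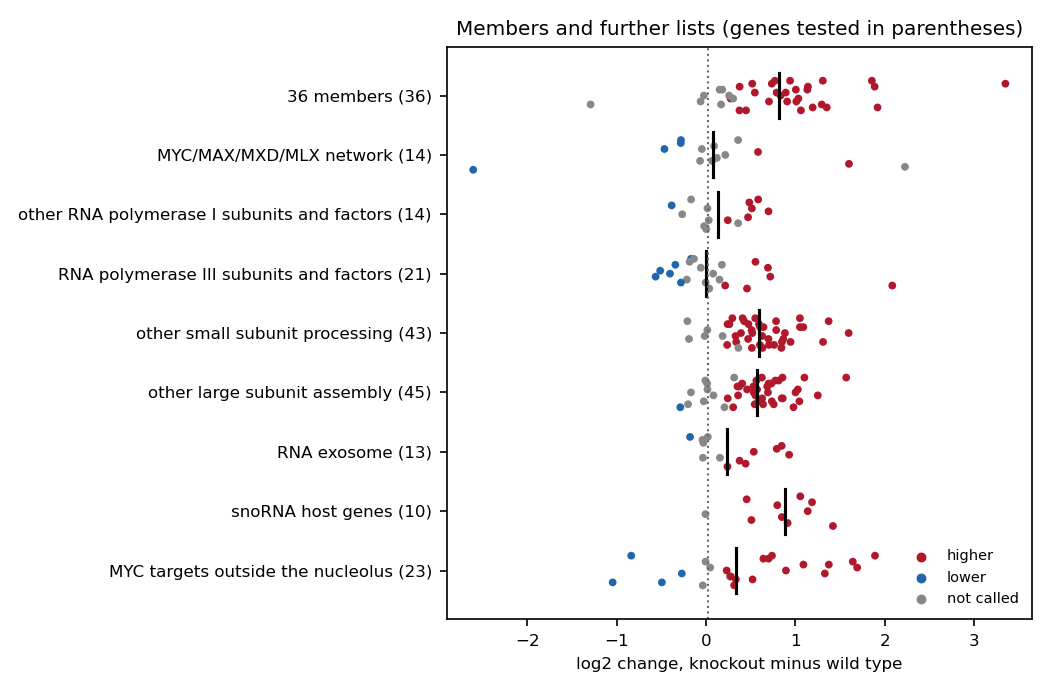
Log2 change (x axis) of each tested gene in the 36 genes and in 8 further lists, with called genes in red (higher) or blue (lower), others in grey, the median of a list as a black line and the median of all genes tested as a dotted line at 0.02. Medians of subunit processing (0.59 and 0.57) and of snoRNA host genes (0.88) lie to the right, and those of polymerase III and of the MYC/MAX/MXD/MLX list lie near 0.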

How the data were processed

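Total RNA of 8 hearts was sequenced as paired-end TruSeq libraries. The authors aligned read pairs to mm10 with HISAT2 2.10, counted them per gene and strand with featureCounts 1.6.3 (Ensembl GRCm38) and scaled them with DESeq2 1.18.1 in R 3.5.1, as the methods and the submitters' processing notes state. In the deposited sheet each value is a normalised signal, a count that the authors divided by the size factor of its library. The second deposited sheet, with fold changes and p-values of the authors' own comparison, was not used. Whole read pairs could be recovered for 100% of the values above 0, within a tolerance of 0.01. No member had fewer than 12 read pairs in any library.

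Genotypes were compared with limma-trend (limma 3.58.1, R 4.3.3) on log2(normalised count + 1), two-sided, for 17046 genes with a mean of at least 10, at an adjusted p of 0.05. Fold changes are on this scale, where the pseudocount of 1 understates changes of low genes. A value such as 10.1-fold is the ratio of mean normalised counts. Called genes were those past this threshold. Differences between partners were compared by exact permutation over 70 assignments. The limma p-values reflect the spread among the 4 hearts of each genotype, pooled over both genotypes. This spread is drawn towards that of genes at a similar level. Alternatives covered pseudocounts of 0.5 and 5, filters, scalings, edgeR 4.0.16 and DESeq2 1.42.0 on the recovered counts, a replicate block and leaving out each library. The fit was also run on simulated counts with few changed genes and the same spread in both groups. That checked the calculation and not the calls made here. Gene positions are those of the deposited table on GRCm38, and strand, exons and snoRNA genes come from GENCODE M21.

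All 36 members were named, and of each further list the 2 largest rises and falls past the threshold. Sequences were chosen for holding CACGTG. Members, lists and pairs were chosen with earlier results of these data known.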

Additional observations from a re-analysis of the deposited data

Results flagged for a closer look

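Of 72 combinations of a gene and a group of 4 libraries, 3 held a library far from the others by Dixon's test, and about 1 in 20 is flagged by chance. *Rrn3* was at 2203 normalised counts in knockout replicate 3, where the nearest library had 1969. *Nhp2* was at 184 in wild type replicate 3, where the nearest had 139. *Noc2l* was at 746 in wild type replicate 3, where the nearest had 675.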

How the results depend on the processing

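The number of genes called higher among the 36 was 27 to 35 under every alternative, and the 28 calls were each kept in every fit that tested the gene. With equal library totals, which moved the median of all genes tested to 1.44, 14953 genes were higher and 567 lower in place of 5241 and 4839, and *Mycn*, *Max* and *Polr1a* turned to 0.11, 1.42 and 1.38. With equal totals of nuclear genes (7355 higher and 3268 lower) *Max* was at 0.21 and *Polr1a* at 0.17, and with TMM scaling *Max* was at 0.011. Leaving out single libraries moved *Max* between -0.18 and 0.072, with values above 0 without wild type replicate 3 (0.007), knockout replicate 1 (0.032) or knockout replicate 2. Leaving out single libraries gave 28 to 30 of the 36 genes higher, 0 to 1 lower (*Mycn*, without knockout replicate 1), 3.19 to 3.54 for *Myc*, 4792 to 5474 genes higher and 4414 to 5030 lower. *Rrp9* passed with equal totals of nuclear genes (0.49, adjusted p = 0.0103). Libraries with the same replicate number did not deviate together (correlations of deviations of 0.04, -0.07, 0.008 and -0.04), and with a replicate block 28 of the 36 genes were higher and 0 lower, 5076 and 4645 over all genes. No direction of the 13 differences between partners turned with other pseudocounts or a library left out. Depth limited *Gar1*, *Wdr74*, *Mycn* in the knockout and *Myc* in wild type most.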
